A study of Mus musculus with 6 samples.

Results

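The genes described here are 36 aminoacyl-tRNA synthetase genes of the mouse, taken by name from the 46983 genes counted. They comprise 20 genes of cytosolic enzymes and 16 genes of mitochondrial enzymes, the latter with symbols that end in 2. All 36 were found, and all 36 were abundant enough to be tested. RNA depleted of ribosomal RNA was sequenced in bulk from naive CD4 T cells, sorted from lymph nodes of male mice as TCR-beta, CD4 and CD62L positive, CD44 negative and DAPI negative. The 2 control libraries came from Cmtr1 fl/fl mice without CD4-Cre, and the 4 libraries labelled Cmtr1 cKO from Cmtr1 fl/fl mice with CD4-Cre, so both groups carried the floxed alleles. CD4-Cre acts in developing T cells of both the CD4 and the CD8 lineage, and the controls carried no Cre, so effects of Cre itself and of the deletion cannot be told apart. Ages, and whether each library came from 1 mouse, are not given in the labels, so the p-values rest on the spread of these libraries alone, which may be technical.

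Aminoacyl-tRNA synthetases join each amino acid to its tRNA, the step that sets the reading of the genetic code. The enzymes of the cytosol and of the mitochondrion are mostly encoded by separate nuclear genes, and several cytosolic ones are held in a multi-synthetase complex by scaffold proteins. In mammalian cells short of amino acids, the kinase GCN2 senses uncharged tRNA, and the transcription factor ATF4 then raises many cytosolic synthetase genes. CMTR1, the enzyme whose gene carries the floxed alleles, adds a ribose methyl group to the nucleotide that follows the cap of an mRNA.

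Gene counts came to 9513874 to 11949838 per library. Levels are given as CPM, the count over the TMM-scaled library total, and are relative within a library. In bulk RNA, fewer cells of a type and less RNA per cell cannot be told apart. Cmtr1 itself had 11.2 and 11.4 CPM in the controls and 7.57 to 19.8 CPM in Cmtr1 cKO. Which exon is floxed is not stated in the labels, so a count over the whole gene is no check of them. Of the uniquely mapped reads, a part fell outside annotated exons of the counted strand (the outside-exon share). It was 37.2% and 34.0% in controls 1 and 2 and 52.3%, 51.6%, 46.7% and 38.0% in Cmtr1 cKO 1 to 4. Reads opposite to an exon can enter this share. The column of the opposite strand held 1707028 gene reads for Cmtr1 cKO 3, and at most 551462 for any other library. The share of Cmtr1 cKO 3 may thus be raised by such reads, by an amount that was not tested. The 8 naive CD4 T cell markers summed to 5052 and 5162 CPM in the controls and to 4698 to 5547 CPM in Cmtr1 cKO. The 5 B cell markers summed to at most 37.1 CPM, the 5 myeloid markers to 42.7 CPM in control 1 and at most 27.6 elsewhere, and the 5 natural killer cell markers to at most 1.84 CPM. The 2 CD8 T cell markers summed to 23.6 and 28.7 CPM in the controls and to 17.0 to 21.3 CPM in Cmtr1 cKO, and the 4 erythroid markers to at most 3.79 CPM anywhere. The 6 markers of activated or regulatory T cells summed to 150 and 186 CPM in the controls and to 151 to 200 CPM in Cmtr1 cKO. Of all these markers Ccr7 (naive, -0.36) and Cd44 (activated, -0.50) were called by edgeR, both lower on the log2 scale. The part of other cell types in the synthetase results was not tested.

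Promoters are shown because many cytosolic synthetase genes are known targets of ATF4 and because CMTR1 acts at the start of the transcript. The letters TGATGNAA, a form of the composite element bound by ATF4 with C/EBP proteins, were searched on both strands from 250 bases before to 50 bases after the annotated start (RefSeq, GRCm38.p6). A promoter was matched for 27 of the 36 genes. Of 13 cytosolic genes 5 held these letters, and of 14 mitochondrial genes 0 did, against 3.97% of 32851 promoters in the table. The 5 are shown here from 120 bases before the start, with 30 bases from the start itself, and the element in capitals, on whichever strand it reads.
Aars, chr8:111033722-111033871, plus strand: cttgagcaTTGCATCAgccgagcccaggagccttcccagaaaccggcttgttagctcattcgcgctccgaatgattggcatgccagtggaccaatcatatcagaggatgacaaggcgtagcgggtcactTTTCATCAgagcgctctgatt
Gars, chr6:55037881-55038030, plus strand: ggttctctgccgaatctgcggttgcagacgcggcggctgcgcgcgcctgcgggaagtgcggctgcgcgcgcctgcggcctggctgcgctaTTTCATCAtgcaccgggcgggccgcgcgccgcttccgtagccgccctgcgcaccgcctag
Iars, chr13:49682010-49682159, plus strand: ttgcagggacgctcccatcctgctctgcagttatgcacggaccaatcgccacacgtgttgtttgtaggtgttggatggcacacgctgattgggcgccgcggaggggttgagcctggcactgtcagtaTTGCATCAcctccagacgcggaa
Tars, chr15:11399629-11399778, minus strand: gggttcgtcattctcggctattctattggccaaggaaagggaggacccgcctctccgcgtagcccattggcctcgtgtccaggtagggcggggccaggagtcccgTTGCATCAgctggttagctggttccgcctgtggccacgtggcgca
Yars, chr4:129189783-129189932, plus strand: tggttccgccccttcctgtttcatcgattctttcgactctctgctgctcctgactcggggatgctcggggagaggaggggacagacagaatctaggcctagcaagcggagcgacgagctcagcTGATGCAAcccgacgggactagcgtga
Aars holds the element at 2 places, and in Iars and Yars it lies just past the annotated start. A match of letters is a description and not a site.

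The other genes of the family that passed the test between genotypes, Dars, Qars, Sars2 and Vars2, are shown over the same window. None of the 4 holds the element there.
Dars, chr1:128417387-128417536, minus strand: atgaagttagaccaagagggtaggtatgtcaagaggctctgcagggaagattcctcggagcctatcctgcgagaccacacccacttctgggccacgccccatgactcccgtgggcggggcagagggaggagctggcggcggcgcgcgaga
Qars, chr9:108507885-108508034, plus strand: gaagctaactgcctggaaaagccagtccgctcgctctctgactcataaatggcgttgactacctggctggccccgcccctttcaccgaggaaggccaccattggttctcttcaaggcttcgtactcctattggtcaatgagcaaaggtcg
Sars2, chr7:28741848-28741997, plus strand: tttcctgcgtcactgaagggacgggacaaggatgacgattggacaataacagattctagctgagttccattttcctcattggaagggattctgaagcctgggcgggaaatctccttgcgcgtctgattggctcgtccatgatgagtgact
Vars2, chr17:35667563-35667712, minus strand: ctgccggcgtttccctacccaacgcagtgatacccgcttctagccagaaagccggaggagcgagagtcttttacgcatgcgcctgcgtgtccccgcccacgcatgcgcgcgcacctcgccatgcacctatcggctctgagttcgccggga
The ETS core CCGGAAG was found in 5 of the 13 cytosolic and 4 of the 14 mitochondrial genes (8.86% of all promoters), and the core of the NRF1 motif in 3 and 2 (4.6%). The cAMP response element TGACGTCA was found in 0 of either (1.79%). The annotated first transcribed base, the one CMTR1 would modify, was G in 17, C in 6, A in 5 and T in 0 of the 28 promoters of the 27 genes. Over all promoters G stood in 35.6%, A in 34.4%, C in 16.3% and T in 13.7%. Only 1 member promoter began with C and 4 pyrimidines, as the start of a TOP mRNA does, against 2.51% of all promoters. Annotated starts need not be the starts used in these cells.

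Of the 36 synthetase mRNAs 5 differed between the genotypes, 3 higher and 2 lower, by at most 1.52-fold. Of the 20 cytosolic genes 1 was higher, Dars, and 2 were lower, Aars and Qars, in the libraries labelled Cmtr1 cKO. Of the 16 mitochondrial genes 2 were higher, Sars2 and Vars2, and 0 were lower. These calls are at an adjusted p under 0.05 in the quasi-likelihood test of edgeR, adjusted by Benjamini-Hochberg over 12748 genes, of which 11.4% were called, 4.66% higher and 6.77% lower. The shares of 15% of cytosolic and 12.5% of mitochondrial genes are near that background. At an unadjusted p under 0.05 there were 8 cytosolic and 7 mitochondrial genes, against 3933 of the 12748. DESeq2 also called 0 mitochondrial genes lower. The median log2 fold change was -0.086 over the cytosolic genes and 0.16 over the mitochondrial genes, beside -0.00047 over all genes and -0.023 over protein-coding genes. Without control 1 or without control 2 none of the 5 genes was called, in fits that called 255 and 193 genes in all. Fold changes ran from -0.43 (Qars) to 0.34 (Dars) in the cytosolic set and, apart from Lars2, from -0.23 (Pars2) to 0.61 (Sars2) in the mitochondrial set.

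**Figure D1:**
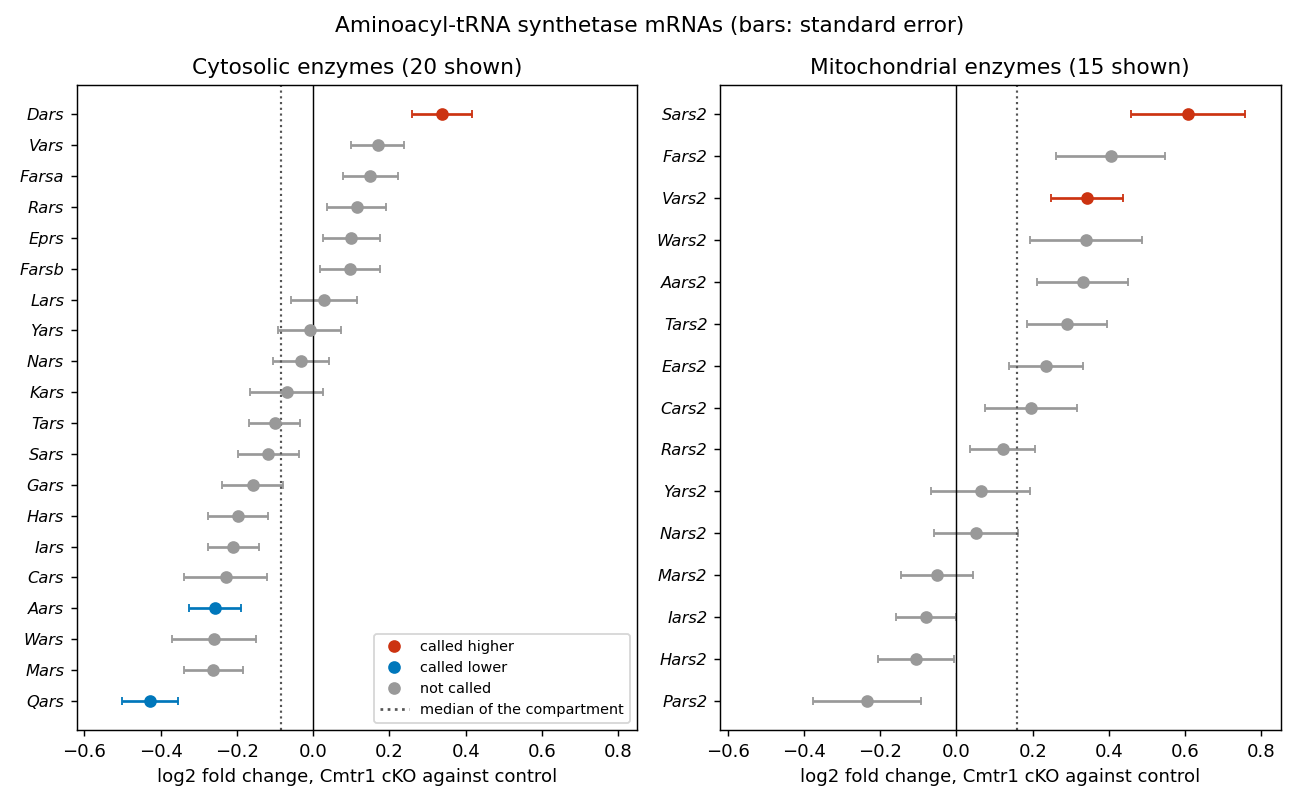
Log2 fold change of each synthetase mRNA, Cmtr1 cKO against control, with its standard error, for the 20 cytosolic and 15 of the 16 mitochondrial genes (Lars2 is at -2.46, off the scale, and counted in the median). Red and blue points were called higher and lower, and the dotted lines stand at the medians of -0.086 and 0.16.

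Of the 8 enzymes of the multi-synthetase complex 1 was higher and 1 was lower (25% called, beside 11.4% of all genes). With so few genes, this count is no result about the complex as a whole. Dars (ENSMUSG00000026356.15), the aspartate enzyme, stood at 125 and 133 CPM in the controls against 154, 156, 163 and 179 CPM in Cmtr1 cKO 1 to 4. Every Cmtr1 cKO library was above both controls. Means were 129 ± 5.3 CPM (SD, n = 2) and 163 ± 11.5 CPM (SD, n = 4), which is 0.34 ± 0.08 (SE) on the log2 scale (edgeR adjusted p = 0.0228). Qars (ENSMUSG00000032604.14), the glutamine enzyme, stood at 103 and 105 CPM in the controls against 76.5, 77.2, 83.4 and 73.3 CPM in Cmtr1 cKO. All 4 of those libraries lay below both controls, with a log2 difference of -0.43 ± 0.07 (SE) at an edgeR adjusted p = 0.00501, that is, at 0.744 of the control level. The other 6 did not pass: Mars, which charges methionine and initiator tRNA, had -0.26 (edgeR adjusted p = 0.0510), Iars (isoleucine) -0.21, Kars (lysine) -0.070, Lars (leucine) 0.029, Eprs, the joined glutamate and proline enzyme, 0.10, and Rars (arginine) 0.11. The scaffold proteins of the complex did not pass either, with Aimp1 at -0.054, Aimp2 at 0.32 and Eef1e1 at 0.018. Without control 1, control 2 or Cmtr1 cKO 3 the call of Dars ended (edgeR adjusted p = 0.172, 0.134 and 0.0592), and without control 1 or control 2 so did that of Qars (edgeR adjusted p = 0.0645 and 0.0944).

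Among the 12 cytosolic enzymes outside the complex, only Aars (ENSMUSG00000031960.14), the alanine enzyme, passed the test. It stood at 114 and 110 CPM in the controls against 89.9, 91.1, 96.3 and 97.0 CPM in Cmtr1 cKO 1 to 4. These 4 values lay below both controls, at -0.26 ± 0.07 (SE) on the log2 scale (edgeR adjusted p = 0.0347). Of the exon bases of Aars 14.3% are shared with Exosc6 on the same strand, where a read cannot be assigned to one gene. Wars, the tryptophan enzyme, had -0.26 ± 0.11, Cars (cysteine) -0.23 ± 0.11 and Hars (histidine) -0.20 ± 0.08 (SE), none of them called. Tars (threonine, -0.10), Sars (serine, -0.12), Nars (asparagine, -0.032) and Yars (tyrosine, -0.0094) were nearer 0. On the other side, Vars (valine) had 0.17, and Farsa and Farsb, the subunits of the phenylalanine enzyme, had 0.15 and 0.097. Gars, whose gene encodes both the cytosolic and the mitochondrial glycine enzyme, as Kars does for lysine, had -0.16 ± 0.08 (SE) and was not called. The call of Aars ended in DESeq2 (adjusted p = 0.0541), with the outside-exon share as a covariate (edgeR adjusted p = 0.195) and without any single library other than Cmtr1 cKO 4 (edgeR adjusted p = 0.0892 to 0.213).

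Both called mitochondrial genes were higher in all 4 Cmtr1 cKO libraries than in either control. Sars2 (ENSMUSG00000070699.4), which charges mitochondrial serine tRNAs, stood at 12.2 and 11.8 CPM in the controls against 15.4, 18.9, 17.5 and 21.7 CPM in Cmtr1 cKO 1 to 4. The difference of 0.61 ± 0.15 (SE) on the log2 scale, or 1.52-fold (edgeR adjusted p = 0.0272), was the highest of the 36. Vars2 (ENSMUSG00000038838.15), the mitochondrial valine enzyme, stood at 43.7 and 39.8 CPM in the controls against 53.0, 56.0, 47.1 and 55.7 CPM in Cmtr1 cKO. Its log2 fold change was 0.34 ± 0.09 (SE; edgeR adjusted p = 0.0391). Sars2 was not called without control 1, control 2, Cmtr1 cKO 2 or Cmtr1 cKO 3 (edgeR adjusted p = 0.145, 0.194, 0.0585 and 0.0566), and Vars2 was not called without control 1, control 2, Cmtr1 cKO 1 or 2, on unstranded counts, or with the covariate (edgeR adjusted p = 0.125, 0.267, 0.0737, 0.0924, 0.0527 and 0.0859).

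**Figure D2:**
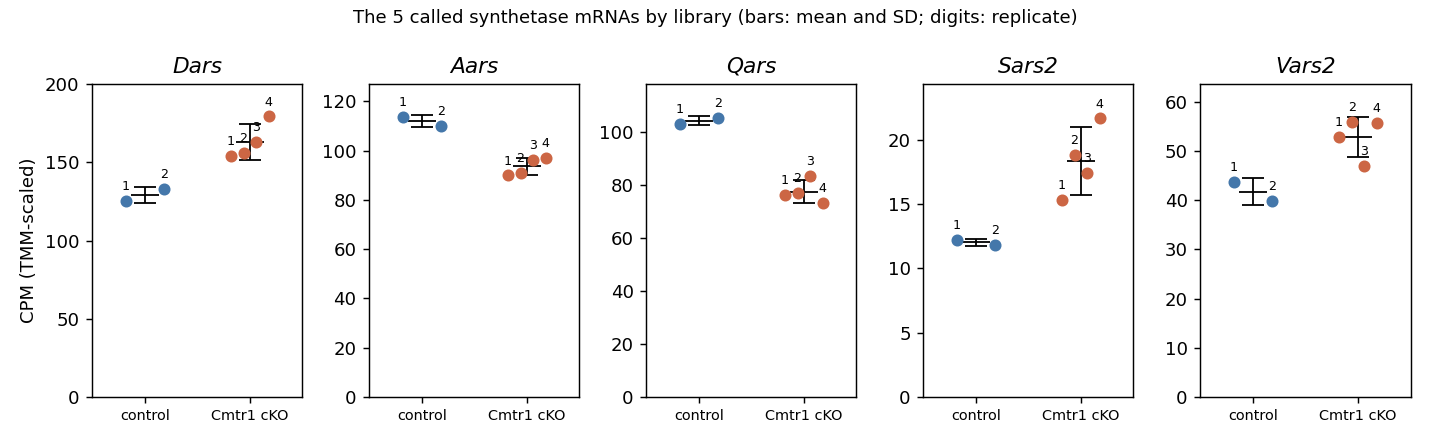
TMM-scaled CPM of the 5 called synthetase mRNAs in each library, with mean and SD per group and the replicate number beside each point. In each panel the 4 Cmtr1 cKO libraries lie wholly on one side of the 2 controls.

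The remaining mitochondrial genes mostly had fold changes above 0 that did not pass. Fars2 (phenylalanine) had 0.40 ± 0.14, Wars2 (tryptophan) 0.34 ± 0.15, Aars2 (alanine) 0.33 ± 0.12, Tars2 (threonine) 0.29 ± 0.11 and Ears2 (glutamate) 0.23 ± 0.10 (SE). Their edgeR adjusted p ran from 0.0850 (Fars2) to 0.143 (Wars2). Cars2 (0.20), Rars2 (0.12), Yars2 (0.064) and Nars2 (0.051) were nearer 0, and Mars2 (-0.051), Iars2 (-0.080), Hars2 (-0.11) and Pars2, the proline enzyme (-0.23), were below it. In 8 of the 16 genes the Cmtr1 cKO libraries all lay above both controls, and in 0 all below, where 18.2% and 20.8% of all genes did so (39.0% in either direction). Of the cytosolic genes 4 lay wholly above (Dars, Farsa, Rars and Vars) and 7 wholly below (Aars, Cars, Hars, Iars, Mars, Qars and Tars). Without Cmtr1 cKO 4 the test called 7 cytosolic genes lower and 6 mitochondrial genes higher, among 3880 genes called in all.

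Lars2, the mitochondrial leucine enzyme, stands apart, and its count is uncertain. It had 216 CPM in control 1, 21.7 in control 2, and 18.7, 18.9, 32.2 and 17.6 CPM in Cmtr1 cKO 1 to 4. Control 1 alone gave the value of -2.46 ± 0.94 (SE) on the log2 scale (edgeR adjusted p = 0.173), which was 0.013 without control 1 and was called without control 2 (-3.30). On the opposite strand of Lars2 there were 199796 reads in Cmtr1 cKO 3, where the other 5 libraries had 118 to 813. That library also held 48051 CPM of CT010467.1, which the annotation lists as an rRNA gene, and the others at most 307 CPM. Control 1 had the most reads of the myeloid markers Lyz2 (11.2 CPM against at most 2.43 elsewhere) and Csf1r (3.32 against at most 0.680). Of the other listed myeloid markers, Cst3 was also highest in control 1 (25.0 CPM against at most 23.4). Cd68 and Itgam were not: they had 1.92 and 1.22 CPM there, against 3.63 in Cmtr1 cKO 2 and 1.48 in Cmtr1 cKO 1. The part of CT010467.1 or of myeloid cells in the Lars2 reads was not tested. In no other member did the opposite strand hold more than 14.7% of the reads of both strands in any library (Hars2, which overlaps Hars on the opposite strand).

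**Figure D3:**
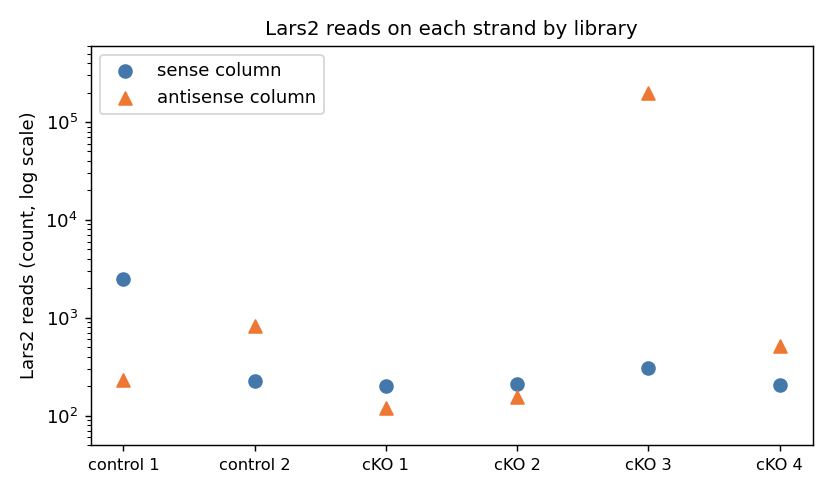
Reads of Lars2 on the gene's own strand and on the opposite strand in each library, on a log scale. The sense count is 2469 in control 1 and 202 to 304 elsewhere, and the antisense count is 199796 in Cmtr1 cKO 3.

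Enzymes that charge the same amino acid in the 2 compartments can be set side by side in 17 pairs. In 15 of them the fold change of the mitochondrial gene was above that of its cytosolic partner, with a median difference of 0.17 on the log2 scale. This order depends on the model. With the outside-exon share as a covariate, Fars2, Hars2, Nars2 and Rars2 lay below their cytosolic partners. The other mitochondrial genes of the 15 stayed above theirs. The compartment medians in that fit were 0.021 (cytosolic) and 0.043 (mitochondrial). Among these 15, serine showed the widest gap, with Sars2 at 0.61 and Sars at -0.12, followed by tryptophan (Wars2 0.34, Wars -0.26) and alanine (Aars2 0.33, Aars -0.26). In 8 pairs all 4 Cmtr1 cKO libraries had the difference above 0 against the control mean, and in 2 pairs, Pars2 with Eprs and Lars2 with Lars, all 4 had it below 0. The leucine pair, which rests on the Lars2 count of control 1, had the widest gap of the 17, at -2.49. Arginine had nearly equal values (Rars 0.11, Rars2 0.12). Eprs and Fars2 each enter 2 pairs, and genes are not replicates, so no p is given.

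**Figure D4:**
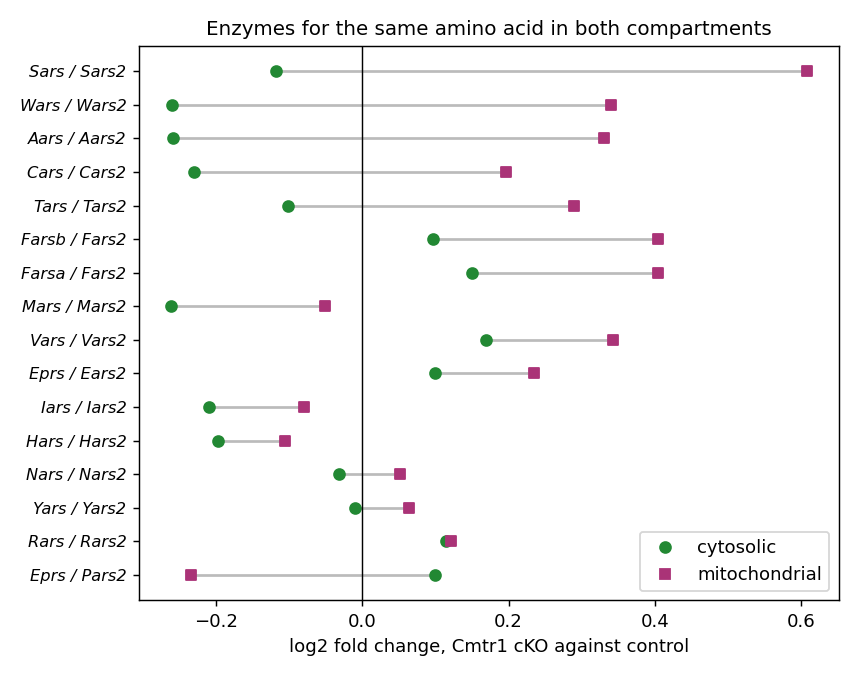
Log2 fold changes, Cmtr1 cKO against control, of the cytosolic (circles) and mitochondrial (squares) enzyme for the same amino acid in 16 pairs, without the pair of Lars2. In this model of genotype alone the square lies to the right of the circle in 15 of the 16, and Pars2 lies to the left of Eprs.

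Glutamine is handled by different routes in the 2 compartments. Each route held 1 called gene, Qars and Gatb. Gatb was the only call among 8 other charging genes (12.5%), near the 11.4% called among all genes. The cytosol charges it directly with Qars, which was lower. Mammalian mitochondria load glutamate on the glutamine tRNA by Ears2 and convert it with an amidotransferase of the subunits Gatb, Gatc and Qrsl1. Gatb stood at 16.9 and 14.7 CPM in the controls against 21.4, 21.2, 21.8 and 19.5 CPM in Cmtr1 cKO 1 to 4. All 4 of these were above both controls, by 0.41 ± 0.12 (SE) on the log2 scale (edgeR adjusted p = 0.0426). Qrsl1 (0.26) and Gatc (0.062) did not pass. The call of Gatb ended in DESeq2 (adjusted p = 0.0753), on unstranded counts, with the covariate and without any single library other than Cmtr1 cKO 4 (edgeR adjusted p = 0.0561, 0.335 and 0.089 to 0.283).

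Per kilobase of exon, cytosolic synthetase mRNAs were more abundant than those of the mitochondrial enzymes. The cytosolic partner had the higher level in 16 of the 17 pairs, by 2.83-fold at the median, and the exception was threonine, where Tars and Tars2 had a ratio of 0.990. The count depends on the length used. Per kilobase of the longest coding transcript, Tars2 had 28.9 CPM against 19.6 for Tars, and Cars2 had 13.8 against 13.0 for Cars. In the other pairs the cytosolic partner stayed higher. Highest in the cytosolic set were Dars at 29.6 ± 1.2 in controls and 37.4 ± 2.6 CPM per kilobase in Cmtr1 cKO (SD, n = 2 and 4), Sars at 33.7 ± 1.3 and 31.1 ± 2.3, and Gars at 34.0 ± 1.8 and 30.4 ± 2.2. In the controls Sars and Gars did not differ beyond their spread and Dars was below both, while in Cmtr1 cKO Dars was above both. In single libraries, Sars stood at 178 and 168 CPM in the controls against 148, 151, 172 and 169 CPM in Cmtr1 cKO. Gars had 102 and 110 CPM, then 92.5, 88.9, 93.8 and 105 CPM. For both genes the groups overlapped.

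Highest in the mitochondrial set were Tars2 at 11.7 ± 0.15 and 14.3 ± 1.8 CPM per kilobase, Rars2 at 12.3 ± 0.30 and 13.3 ± 0.44, and Iars2 at 11.6 ± 0.85 and 10.9 ± 0.62 (SD, n = 2 and 4). Tars2 stood at 81.9 and 80.4 CPM in the controls against 110, 110, 91.4 and 85.8 CPM in Cmtr1 cKO 1 to 4. Rars2 had 33.4 and 34.6 CPM, then 38.2, 35.5, 36.5 and 37.6 CPM. In both genes the groups did not overlap and the test did not pass. Iars2 stood at 108 and 97.4 CPM in the controls against 97.0, 98.2, 104 and 90.2 CPM in Cmtr1 cKO, with overlapping groups. With the longest coding transcript as the length, in place of all annotated exons, the same 3 mitochondrial genes led, while Dars, Eprs and Kars led the cytosolic set.

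The difference between the compartments varied in size among the Cmtr1 cKO libraries. Against the control mean, the median log2 ratio of the cytosolic genes was -0.11, -0.12, -0.076 and -0.022 in Cmtr1 cKO 1 to 4. That of the mitochondrial genes was 0.18, 0.22, 0.11 and 0.066. Cmtr1 cKO 4, the library nearest the controls in its outside-exon share, had the smallest of each. The summed level of the mitochondrial genes without Lars2 was 542 and 525 CPM in the controls against 602, 599, 582 and 557 CPM in Cmtr1 cKO. Of the cytosolic genes it was 2001 and 1953 CPM in the controls against 1852, 1884, 1954 and 2038 CPM in Cmtr1 cKO, and the groups overlapped. In a fit that takes the outside-exon share, opposite-strand reads included, as a covariate, the medians were 0.021 (cytosolic) and 0.043 (mitochondrial). Dars and Sars2 were called higher there at 0.52 and 0.88, and Qars and Cars lower at -0.47 and -0.52. The part of this share in the results was otherwise not tested.

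**Figure D5:**
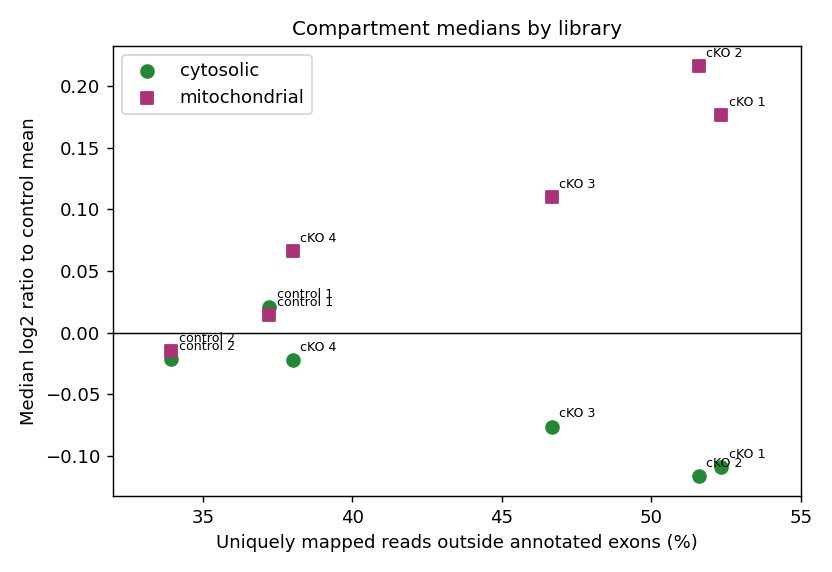
Median log2 ratio to the control mean of the 20 cytosolic (circles) and 16 mitochondrial (squares) genes in each library, against the outside-exon share of its uniquely mapped reads. The medians reach -0.12 and 0.22 in Cmtr1 cKO 2, where the share is 51.6%, and are -0.022 and 0.066 in Cmtr1 cKO 4, where it is 38.0%.

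The cytosolic genes with the TGATGNAA element, shown above, all had fold changes below 0, from -0.26 (Aars) to -0.0094 (Yars), with a median of -0.16. The 8 cytosolic genes with a matched promoter that lacks it had a median of 0.014, with 4 below 0. Over all tested genes with a matched promoter, 227 with the element had a median of -0.065 and 59.5% below 0, and 8567 without it had -0.019 and 52.8%. Called lower were 1 of the 5, Aars, and 7.49% and 6.97% of these 2 sets of tested genes. The signs of the 5 did not all hold in other fits. Gars had 0.016 with the outside-exon share as a covariate, and Yars had 0.022 on protein-coding genes alone. Aars, Iars and Tars stayed below 0 in both.

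Of 13 tested genes of amino acid sensing and the ATF4 pathway (16 listed) 0 were higher and 2 (15.4%) lower by edgeR, near the 11.4% called in either direction among all genes (6.77% lower). These were Mthfd2, of mitochondrial folate metabolism, at -0.61 ± 0.11 and Phgdh, which opens serine synthesis, at -0.36 ± 0.09 (SE). Atf4 itself had -0.23 and was not called, and the list's median was -0.23. Of 8 tested amino acid transporters (9 listed) 3 were lower (37.5%) and 0 higher: Slc7a5, the catalytic chain of the large neutral amino acid carrier, at -0.57 ± 0.09, Slc7a1, which carries cationic amino acids, at -0.35 ± 0.07, and Slc38a1, a glutamine carrier, at -0.24 ± 0.07 (SE). Their median was -0.021, and Slc3a2, the partner chain of Slc7a5, had 0.012. With the covariate all of these calls but that of Slc7a5 ended. Without control 1 or control 2 none of the 5 was called, and without Cmtr1 cKO 3 Phgdh, Slc7a1 and Slc38a1 were not, nor were Phgdh and Slc38a1 without Cmtr1 cKO 1 or 2.

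Of 13 genes of tRNA maturation and export 2 (15.4%) were lower and 0 higher by edgeR, again near the 11.4% called among all genes. Clp1, an RNA kinase of the tRNA splicing complex, went from 30.1 ± 0.21 to 20.5 ± 0.70 CPM (SD, n = 2 and 4), a log2 fold change of -0.55 ± 0.09 (SE). Xpot, which exports tRNA from the nucleus, had -0.30 ± 0.08 (SE). The call of Clp1 ended without control 1 or control 2. That of Xpot ended without control 1, control 2, Cmtr1 cKO 2 or Cmtr1 cKO 3, in DESeq2, with the covariate and on protein-coding genes alone. Of 7 genes that remove wrong or stalled aminoacyl-tRNA 0 passed in edgeR, with 2 at an unadjusted p under 0.05 and 0 called by DESeq2. The 8 other charging genes all had fold changes above 0, and only Gatb passed (12.5%, near the 11.4% called among all genes).

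Of 6 genes that deliver charged tRNA to the ribosome 4 were lower (6.77% of all genes were, by edgeR) and 0 higher by edgeR and by DESeq2, all 4 of them subunits of cytosolic elongation factor 1, from Eef1a1 at -1.28 ± 0.17 through Eef1b2 at -0.93 ± 0.11 and Eef1g at -0.88 ± 0.12 to Eef1d at -0.45 ± 0.10 (SE). Eef1a1, which binds the charged tRNA itself, stood at 11583 and 11850 CPM in the controls against 4056, 4409, 5069 and 5765 CPM in Cmtr1 cKO 1 to 4, and the groups did not overlap. Elongation factor genes have many processed pseudogenes, and reads shared with them make these counts uncertain. Their mitochondrial counterparts Tufm and Tsfm had -0.12 and 0.091 and did not pass. The call of Eef1d ended without control 1, control 2 or Cmtr1 cKO 3 and with the covariate.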

How the data were processed

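The authors deposited raw read counts for each gene, in the layout of a STAR gene table, with 1 unstranded and 2 stranded columns. The submitters' processing notes name mm10 and GRCm38 as builds and STAR 2.5.2b and edgeR as tools. For the annotation used in counting, the version was not given in the sources used here. Identifiers were matched, without versions, to GENCODE vM21 (GRCm38), and 46488 of 46983 matched. The stranded column with the larger gene total was used, at 5.57 to 22.7 times the other. Rows that name no gene (52.1% to 62.0% of reads) were left out.

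Genes kept by filterByExpr (12748) were scaled by TMM and tested in edgeR 4.0.16 (R 4.3.3) by glmQLFit with robust settings and glmQLFTest, in a model of genotype alone, and called at an adjusted p under 0.05 (Benjamini-Hochberg). SE is the log2 fold change divided by the square root of F. The same code was tested on simulated counts. DESeq2 1.42.0 was an alternative, beside other scaling, no filter, unstranded counts, protein-coding genes alone, a covariate, a replicate block and each library left out. Values in every library are given for called members and for the 3 highest per kilobase in each compartment. From the lists of related genes, up to 4 called genes are named; uncalled ones that are named, such as Atf4 and Slc3a2, were chosen after their values were seen. The members, lists and tests were chosen with earlier results of these data known. Levels per kilobase use the union of annotated exons. Promoters are from RefSeq (GRCm38.p6), matched by symbol, and 1 through a synonym with the same coordinates. Lyz2 and Csf1r in control 1, CT010467.1 and the opposite strand of Lars2 were singled out after their values were seen.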

Additional observations from a re-analysis of the deposited data

Results flagged for a closer look

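Aars2 was low in Cmtr1 cKO 4, at 24.1 CPM against 29.9 to 30.9 in the other Cmtr1 cKO libraries, beyond the range that Dixon's test allows for 4 samples. By the same test Lars2 was high in Cmtr1 cKO 3, at 32.2 CPM against 17.6 to 18.9. Chance gives such a value in about 1 of 20 groups, and 36 were examined. On the strand opposite to Lars2, Cmtr1 cKO 3 had 199796 reads against 231 and 813 in the controls. They enter the Lars2 count only in the alternative on unstranded counts. GENCODE vM21 lists no exon opposite to those of Lars2, so these reads would also fall in the outside-exon share used as the covariate.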

How the results depend on the processing

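With 1 library left out, cytosolic genes called higher numbered 0 to 1 and lower 0 to 7, and mitochondrial genes called higher 0 to 6 and lower 0 to 1. The medians ran from -0.13 to -0.056 and from 0.13 to 0.19. Fits with a single control, which is then assumed to vary like the Cmtr1 cKO libraries, called 255 and 193 genes in all. The cytosolic genes called lower numbered 1 in DESeq2 and 9 with the replicate block. The mitochondrial genes called higher numbered 4 without a filter, 1 on unstranded counts, 1 with the covariate and 7 with the block, and 1 was lower with the block. The replicate number is shared by only 2 libraries of each group, no label says that it pairs them, and the deviations correlated at 0.13 for number 1 and -0.13 for number 2. With 2 controls, the deviations of the controls from their mean are mirror images. These correlations are therefore not separate checks and cannot decide whether the number pairs libraries. The block called 4842 genes in all. The mitochondrial median was 0.24 on unstranded counts, 0.043 with the covariate and 0.20 without Lars2 (chosen after seeing the data), and the cytosolic median turned to 0.021 with the covariate. Uncalled genes changed sign as follows. Lars2 had 4.97 on unstranded counts, and Yars 0.022 on protein-coding genes alone. With the covariate Gars had 0.016, Kars 0.19, Nars 0.074, Sars 0.010, Wars 0.026, Pars2 0.020, Cars2 -0.060, Nars2 -0.051 and Tars2 -0.010. With the block Lars had -0.074, Yars 0.047 and Yars2 -0.027. With 1 library left out Nars ran from -0.075 to 0.037, Yars from -0.028 to 0.037, Iars2 from -0.14 to 0.0072, Lars2 from -3.30 to 0.013, Mars2 from -0.11 to 0.038, Lars from -0.031 to 0.12, Nars2 from -0.024 to 0.16 and Yars2 from -0.0028 to 0.15. The cause of these shifts was not tested. Median-of-ratios scaling changed no call and no sign among the 36. With 2 controls, small differences are measured against little control replication.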
